A study of Mus musculus with 48 samples.

Results

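Cytosolic ribosomal protein genes were followed in the left ventricle of 48 mouse hearts, across ischaemia-reperfusion and across 4 ages. A gene was taken when its symbol in the platform annotation begins with Rpl or Rps and a number, or is Rplp0, Rplp1, Rplp2 or Rpsa, leaving out kinases, pseudogenes and a binding protein that share these letters. The annotation held 57 such genes. Of these, 51 had a probe detected on at least 6 of the 48 arrays, and these 51 stand among 9811 genes measured that way. By their symbols they comprise 35 genes of the large subunit and 16 of the small subunit. The other 6, Rps23rg1, Rps19, Rplp2, Rpsa, Rpl17 and Rpl39l, were detected on too few arrays and have no values here. Detection on all 48 arrays was met by 45 of the 51 genes.

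The hearts came from male C57BL/6 mice, bought at 7 weeks of age and kept to 8, 16, 32 or 48 weeks. Each heart was excised and perfused in Langendorff mode, that is through the aorta outside the body, with 20 min to stabilise. In every age group, global ischaemia of 25 min followed by 45 min of reperfusion (I/R) was applied to 6 hearts, while 6 others had uninterrupted normoxic perfusion of matched length (normoxic). Every group therefore holds perfused hearts, and each array measured 1 heart. The design asks how early ageing and I/R change ventricular transcripts.

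Ribosomal proteins assemble with ribosomal RNA into a small subunit, which decodes the messenger RNA, and a large subunit, which joins amino acids. Their messengers are among the most abundant in any cell and carry a terminal oligopyrimidine (TOP) tract, a C followed by a run of C and T at the very start of the transcript, through which the kinase mTORC1 controls their translation. The heart muscle also has a ribosomal protein of its own, Rpl3l, which takes the place of Rpl3 in striated muscle ribosomes.

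The arrays differed by treatment in ways that bear on every I/R value below. The RNA integrity number (RIN) averaged 7.87 ± 0.296 in I/R hearts and 8.50 ± 0.296 in normoxic hearts (SD, n = 24 each). In I/R hearts its mean was 8.08, 8.03, 7.75 and 7.60 at 8, 16, 32 and 48 weeks, and in normoxic hearts 8.52, 8.75, 8.42 and 8.30. Between 11072 and 13854 probes were detected on I/R arrays and between 13362 and 15080 on normoxic arrays. The labels name no slide or run, so a processing batch that followed treatment or age cannot be told apart from it. All 9 cardiomyocyte markers examined were measured, and their summed signal lay between 268996 and 286731 on I/R arrays and between 224904 and 267968 on normoxic arrays, with no overlap. With RIN as a covariate 38 of the 51 genes passed in the mean I/R comparison, 22 higher and 16 lower, against 40 without it. The share of all genes with RIN as a covariate is not given here. In the mean I/R comparison, where 78.9% of all genes passed, 6 cardiomyocyte markers were higher and 3 lower in I/R hearts. Of the other markers measured, 4 of 6 fibroblast markers were higher and 1 lower, 1 of 7 endothelial markers higher and 5 lower, 2 of 5 smooth muscle and pericyte markers higher and 3 lower, 3 of 4 macrophage markers higher and 1 lower, 1 of 3 atrial markers lower, and 0 of 3 red cell markers passed (limma, 0 also at an unadjusted p under 0.05). Summed signals did not always follow these counts. For macrophage markers the median sum was 1962 on I/R and 2426 on normoxic arrays. For smooth muscle and pericyte markers it was 6969 and 5790, and both pairs of ranges overlapped. The part of cell content in the results was not tested, and in whole tissue fewer cells of a type and less RNA per cell cannot be told apart.

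Start-site sequences of RefSeq (build GRCm38.p6) were available for 41 of the 51 genes. Capitals mark the TOP tract in the stretches below. Each holds the 10 bases before the annotated start and the 20 bases that begin with it, 5′ to 3′. The stretches are shown because genes with a clear tract lay on both sides of the I/R comparison described next. The first pair was higher in I/R hearts, Rpl28 did not pass the test, the pair after it was lower (Rps15a on thin detection, in 3 I/R and 22 normoxic hearts), and Rps3a1 and Rpl3l have no tract at the annotated base.
Rpl35a, chr16:33056472-33056501, plus strand: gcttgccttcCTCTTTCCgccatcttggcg
Rps27, chr3:90213629-90213658, minus strand: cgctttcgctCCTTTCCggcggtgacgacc
Rpl28, chr7:4792955-4792984, plus strand: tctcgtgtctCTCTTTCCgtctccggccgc
Rpl38, chr11:114668570-114668599, plus strand: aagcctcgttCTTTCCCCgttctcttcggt
Rps15a, chr7:118116128-118116157, minus strand: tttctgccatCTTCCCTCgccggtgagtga
Rps3a1, chr3:86142649-86142678, minus strand: gccggaagggcgaaagagcaagggtcacgt
Rpl3l, chr17:24727816-24727845, plus strand: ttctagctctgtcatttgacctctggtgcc

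A tract, counted as C at the annotated start followed by at least 4 bases that are each C or T, was found on the sense strand in 9 of the 41 genes (22%), against 2.67% of 17492 protein-coding genes. With the start allowed to lie up to 10 bases to either side, the shares were 51.2% and 34.9%. A missing match says only that these letters are not at this annotated base. Of the 9 genes with a tract, 4 were higher, 3 lower and 2 not past the test in I/R hearts, with a median log2 fold change of 0.15 and a range of -0.61 to 1.10. Of the 32 without, 17 were higher, 10 lower and 5 not past the test, with a median of 0.13. The 2 sets thus spread over both directions.

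I/R was set against normoxic perfusion first as the mean over the 4 ages. Of the 51 genes, 40 passed (78.4%), 25 higher and 15 lower in I/R hearts, by limma with Benjamini-Hochberg adjustment over all 9811 genes and a threshold of 0.05. Over all genes 78.9% passed, 34.6% higher and 44.4% lower, so the share of ribosomal protein genes that passed lies at the background. Log2 fold changes of the 51 genes ran from -0.88 to 2.13 with a median of 0.13, against a median of -0.07 over all genes. The median size without regard to sign was 0.36 for the ribosomal protein genes and 0.37 for all genes. Neither subunit moved one way, with 18 higher and 9 lower among the 35 large-subunit genes and 7 higher and 6 lower among the 16 small-subunit genes. These counts include Rpl22l1, Rpl36al and Rpl4 (higher) and Rps15a (lower). Those genes entered the set wholly or mainly through the side where they were bright, so their calls weigh little.

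**Figure D1:**
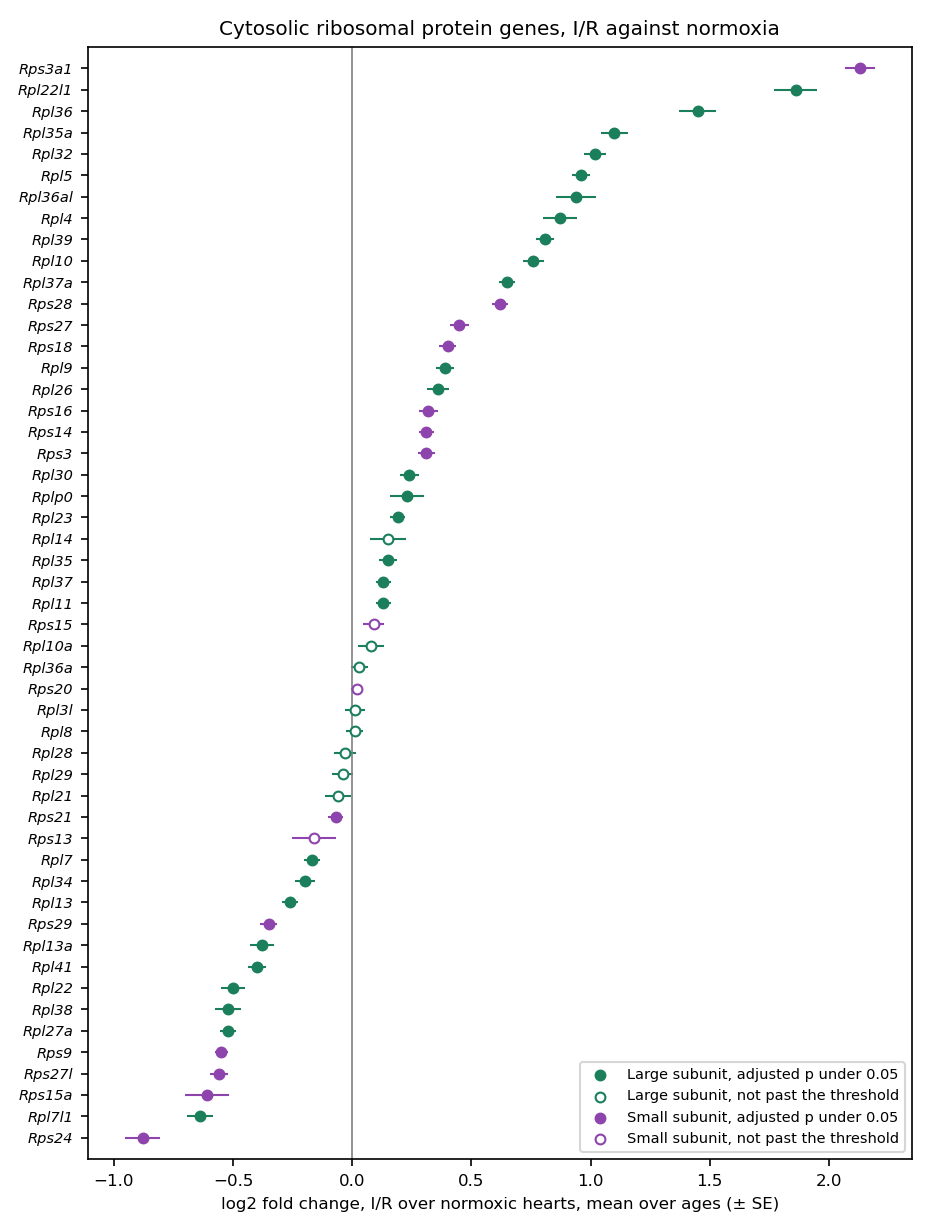
Log2 fold change of I/R over normoxic hearts (mean over ages, horizontal axis, bars ± SE) for each of the 51 genes, ordered by value. Filled points passed the test. Values run from 2.13 for Rps3a1 to -0.88 for Rps24, and genes of both subunits lie on both sides of 0. Rpl41, at -0.40 here, is at 0.05 with median centring of the arrays.

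The largest rise was in Rps3a1, which encodes a small-subunit protein near the exit of the messenger RNA channel and was read by 1 detected probe. Its log2 level had a minimum, median and maximum of 12.04, 12.48 and 12.73 in I/R hearts, against 9.78, 10.35 and 10.83 in normoxic hearts. All 24 I/R hearts lay above all 24 normoxic hearts. The difference was 2.13 ± 0.0616 on the log2 scale (SE), 4.38-fold, with an adjusted p of 1.86e-31.

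Rpl36, a large-subunit protein gene, had log2 levels of 10.84, 11.44 and 11.77 (minimum, median, maximum) in I/R hearts, against 9.20, 9.97 and 10.83 in normoxic hearts. The groups met at the edge, with the lowest I/R heart just above the highest normoxic heart, a 32-week animal. The difference was 1.45 ± 0.077 (2.73-fold, adjusted p 1.33e-21). Rpl35a, whose product is needed to mature the large subunit and whose human counterpart is mutated in Diamond-Blackfan anaemia, had 11.87, 12.29 and 12.51 in I/R hearts and 10.68, 11.21 and 11.57 in normoxic hearts. Again no hearts overlapped, and the difference was 1.10 ± 0.0551 (2.14-fold, adjusted p 1.77e-22).

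Rpl32 had log2 levels of 12.83, 13.08 and 13.35 in I/R hearts, against 11.50, 12.09 and 12.34 in normoxic hearts, a clean separation of 1.02 ± 0.0466 (adjusted p 5.33e-24). Rpl39, which encodes a small protein lining the tunnel through which the new peptide leaves, had 13.31, 13.69 and 14.08 in I/R hearts, against 12.66, 12.86 and 13.12 in normoxic hearts. It was 1.75-fold higher (log2 0.81 ± 0.0369, adjusted p 5.29e-24). Rpl10, one of the last proteins to join the large subunit, was 1.7-fold higher (adjusted p 1.14e-20), Rpl37a 1.56-fold (3.84e-22), Rps28 1.53-fold (2.22e-20) and Rps27, a zinc-finger protein gene, 1.37-fold (8.27e-14).

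Rpl5 and Rpl11 bind the 5S ribosomal RNA before it enters the large subunit, and outside the ribosome the same particle inhibits Mdm2, the ligase that degrades p53. Rpl5 had log2 levels of 13.42, 13.61 and 13.89 (minimum, median, maximum) in I/R hearts, against 12.36, 12.67 and 12.88 in normoxic hearts. No hearts overlapped, and the difference was 0.96 ± 0.0361 (1.95-fold, adjusted p 3.17e-27). Rpl11 had 13.50, 13.71 and 14.00 in I/R hearts, against 13.45, 13.58 and 13.79 in normoxic hearts. These ranges overlapped widely, and its difference of 0.13 ± 0.0316 passed (adjusted p 0.00019) but was lost with RIN as a covariate (0.07, adjusted p 0.226).

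The stalk of the large subunit, which recruits the elongation factors, was represented by Rplp0, its base. Its log2 level was 6.67, 7.15 and 7.67 (minimum, median, maximum) in I/R hearts, against 6.40, 6.91 and 7.27 in normoxic hearts. The ranges overlapped, with a difference of 0.23 ± 0.0711 (adjusted p 0.00285). Its next brightest probe was detected in 13 I/R and 0 normoxic hearts.

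**Figure D2:**
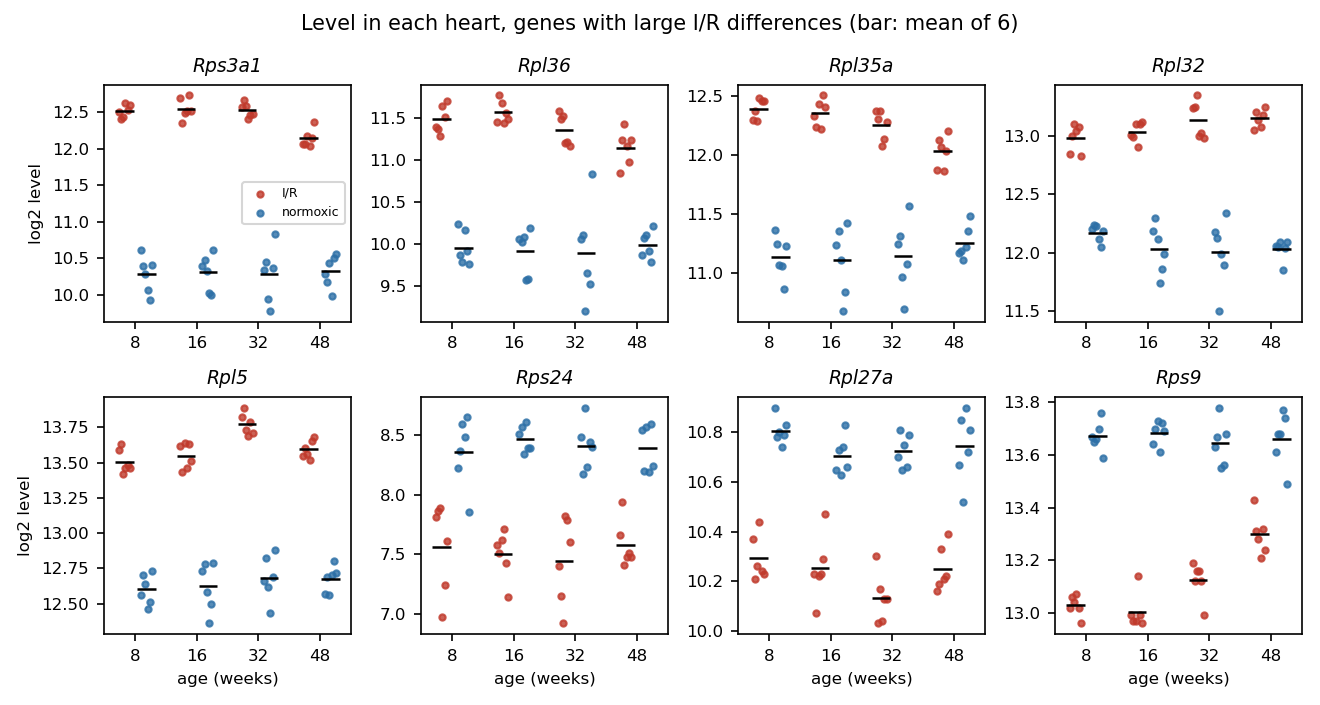
Log2 level in each heart (points, I/R left of normoxic at each age in weeks, bar at the mean of 6) for 8 genes with large I/R differences. Rps3a1, Rpl36, Rpl35a, Rpl32 and Rpl5 were higher and Rpl27a and Rps9 lower in I/R hearts by their brightest probes, without overlap of the 24 and 24 hearts (the fourth Rps9 probe gave 1.97); for Rps24 the lowest normoxic heart, at 7.85, lay below the highest I/R heart, at 7.94.

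The largest fall was in Rps24, which takes part in processing the precursor of ribosomal RNA. Its log2 level was 6.92, 7.55 and 7.94 (minimum, median, maximum) in I/R hearts, against 7.85, 8.42 and 8.73 in normoxic hearts. The ranges overlapped at the edge, and the difference was -0.88 ± 0.0727 (1.85-fold lower, adjusted p 5.8e-15). The next brightest Rps24 probe, detected in 7 I/R and 20 normoxic hearts, gave -0.21 with an adjusted p of 0.0801.

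Rps9, a protein gene of the messenger RNA entry channel, had 4 probes, each detected in all 48 hearts. The brightest had log2 levels of 12.96, 13.09 and 13.43 in I/R hearts, against 13.49, 13.67 and 13.78 in normoxic hearts. It read lower in every I/R heart than in any normoxic heart (-0.55 ± 0.0271 on the log2 scale, adjusted p 7.39e-23), and the second and the third Rps9 probe gave -0.52 and -0.28. The fourth Rps9 probe gave 1.97 (adjusted p 3.51e-29), so no direction can be given for the gene, and other Rps9 values below are those of its brightest probe unless another is named. Rpl27a had 10.03, 10.22 and 10.47 in I/R hearts and 10.52, 10.74 and 10.90 in normoxic hearts, also with no overlap (-0.52 ± 0.0329, adjusted p 9.51e-19).

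Smaller falls passed for Rpl38 (-0.52, adjusted p 1.27e-11), a gene known in mice for its part in translating Hox messengers, although its next brightest probe, detected in 2 I/R and 4 normoxic hearts, gave -0.04 (adjusted p 0.656). They also passed for Rpl22 (-0.50), Rpl13a (-0.38), Rps29 (-0.35) and Rpl13 (-0.26). Rpl41, which encodes the smallest and most basic ribosomal protein, had a difference of -0.40 on the log2 scale (adjusted p 8.41e-13), but with median centring of the arrays in place of quantile normalization its difference was 0.05 (adjusted p 0.292).

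In all, 12 of the 51 genes had no overlap between the 24 I/R and the 24 normoxic hearts, where 10.7% of all genes had none. The 9 higher ones were Rps3a1, Rpl36, Rpl35a, Rpl32, Rpl5, Rpl39, Rpl10, Rpl37a and Rps28, and the 3 lower ones Rpl7l1, Rps9 and Rpl27a, each by its brightest probe. The remaining 28 genes past the test differed with overlapping ranges. Among the 11 that did not pass were Rps20 (0.02, adjusted p 0.41), Rpl36a (0.03, 0.393), Rpl29 (-0.04, 0.36) and Rpl10a (0.08, 0.171), although the next probes of Rps20 and Rpl10a passed (0.33 and 0.99).

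Several ribosomal protein genes have a paralog, in some cases used in particular tissues or states, and 5 paralogs were measured. Rpl3l, the striated-muscle paralog, had log2 levels of 13.62, 13.91 and 14.14 (minimum, median, maximum) in I/R hearts, against 13.56, 13.94 and 14.17 in normoxic hearts. The ranges coincided, and its difference was 0.01 ± 0.0421 (adjusted p 0.818). At the 4 ages it ranged from -0.13 at 16 weeks to 0.16 at 32 weeks and passed at none. Rpl3 itself was not analysed here.

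Rpl22l1 is the paralog of Rpl22, an RNA-binding protein of the large subunit. Its probe was detected in 19 of 24 I/R hearts and in 0 of 24 normoxic hearts, so it entered the set through the I/R hearts and had to differ. Its log2 level had a minimum, median and maximum of 5.38, 7.19 and 7.99 in I/R hearts, against 4.76, 5.15 and 5.72 in normoxic hearts. It was at least 2.54-fold higher in I/R hearts, a bound that sets each normoxic array at its lowest detected signal where the probe was dimmer. Rpl22 went the other way, with 1.42-fold lower levels in I/R hearts (adjusted p 1.37e-12).

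Rps27l, a paralog of Rps27 that is induced by p53 in human cells, had log2 levels of 11.85, 12.23 and 12.68 in I/R hearts, against 12.57, 12.81 and 13.01 in normoxic hearts. Most I/R hearts lay below the normoxic range, and the difference was -0.56 ± 0.0372 (adjusted p 3.06e-18), while Rps27 was higher (0.45). Rpl7l1, a paralog of Rpl7, was 1.56-fold lower with no overlap (7.59, 8.20 and 8.56 in I/R hearts, 8.58, 8.78 and 9.06 in normoxic hearts), but its next brightest probe gave 0.02 (adjusted p 0.802). Rpl36al was detected in 11 I/R hearts and in 0 normoxic hearts, so it too entered through the I/R hearts. Its computed value of 1.04-fold is no firm bound, since most I/R hearts did not have it detected.

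A few other genes had thin detection. Rpl4 was detected in 17 I/R and 3 normoxic hearts and Rps15a in 3 I/R and 22 normoxic hearts, so each entered the set mainly through the side where it was bright, and their places among the genes past the test weigh little. Rpl14 was detected in 8 I/R and 9 normoxic hearts, and Rps13 in 11 and 21, and neither passed (adjusted p 0.0601 and 0.116).

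A second detected probe existed for 14 of the 51 genes. The other 37 rest on 1 probe each, so no second probe could be set beside their values. Among them are Rps3a1, Rpl36, Rpl35a, Rpl32, Rpl39, Rpl10, Rpl37a, Rps28 and Rps27. For the mean I/R difference both probes passed in 7 of the 14 genes, 6 in the same direction and 1 opposite, and a single probe passed in the other 7. The opposite pair was that of Rpl23, with 0.19 from its brightest probe and -0.45 from the next (adjusted p 4.34e-09). The median gap between probes was 0.65, against 0.53 over the 2813 genes with 2 probes, where 43.2% of the pairs that both passed were opposite. The widest gap between the 2 brightest probes was that of Rps3, with 0.31 from the brightest probe and 1.82 from the next. Rpl5 had 0.96 and 2.07, Rpl10a 0.08 and 0.99, and Rpl21 -0.06 and -0.77, the last detected in 8 I/R and 24 normoxic hearts. Over all probes of a gene, the widest gap was the 2.52 between the brightest and the fourth of Rps9. Every probe was detected in all 48 hearts for 7 of the 14 genes, and 2 of these, Rpl23 and Rps9, had probes past the test in opposite directions. For 48 against 8 weeks in normoxic hearts the median gap was 0.09 and no probe passed. Which transcript each probe reads was not tested, and ribosomal protein genes have many processed copies in the genome that a probe could share.

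**Figure D3:**
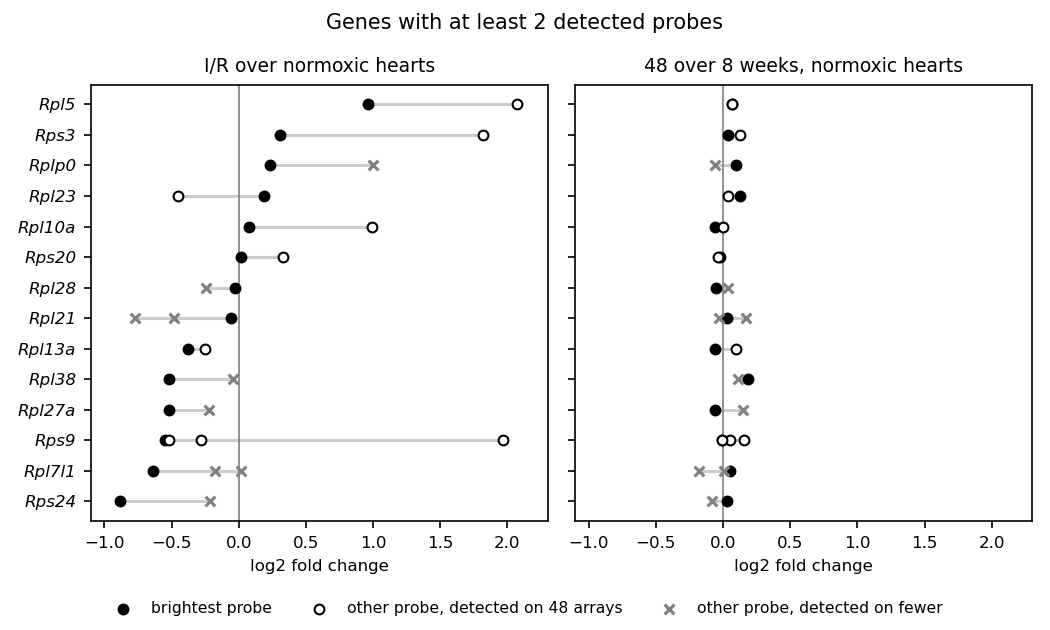
Log2 fold change from each probe of the 14 genes with more than 1 (filled, the brightest; open, others detected on all 48 arrays; crosses, others detected on fewer), for I/R over normoxic hearts (left) and 48 over 8 weeks in normoxic hearts (right). The spans in the left panel reach 2.52, for Rps9, and in the right panel 0.23, for Rpl7l1.

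At the single ages, 37, 33, 39 and 33 of the 51 genes passed in I/R against normoxic hearts at 8, 16, 32 and 48 weeks, where 52.9%, 54.3%, 65.6% and 63.4% of all genes passed. Of these, 25, 23, 23 and 21 were higher in I/R hearts, against 22.3%, 22.3%, 27.6% and 29.2% of all genes, and 12, 10, 16 and 12 were lower, against 30.6%, 32%, 38% and 34.2%. The same direction at all 4 ages was reached by 27 genes, 19 higher and 8 lower, against 33.6% of all genes. Among them Rpl22l1 and Rpl4 (higher) and Rps15a (lower) weigh little, since their detection leaned to the bright side. The counts at each single age hold these genes too, and Rpl36al (higher) at 3 ages, with the same limit. At no age did 8 genes pass, and 14 passed at 1 to 3 ages in a single direction. The remaining 2, Rpl8 and Rpl28, passed in opposite directions at different ages.

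Age was examined next in normoxic hearts, where no ribosomal protein gene passed. Of the 51 genes, 0 passed by limma in 16 against 8 weeks (0.0408% of all genes passed), 0 in 32 against 8 weeks (1.57%), 0 in 48 against 8 weeks (1.64%), 0 in 48 against 32 weeks (0% of all genes) and 0 in the F test over the 4 ages (1.67%). At an unadjusted p under 0.05 the counts were 0, 2, 1, 1 and 0 of the 51 genes in the same order, against 561, 1135, 1009, 504 and 948 of the 9811 genes (5.72%, 11.6%, 10.3%, 5.14% and 9.66%). Fold changes of the 51 genes were small, from -0.18 to 0.19 on the log2 scale in 48 against 8 weeks, from -0.22 to 0.14 in 32 against 8 weeks and from -0.20 to 0.12 in 16 against 8 weeks. Their median size in 48 against 8 weeks was 0.05, against 0.10 over all genes.

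In 48 against 8 weeks the smallest p-values belonged to Rpl23 and Rpl29, both of the large subunit. Rpl23 had a median log2 level of 14.19 at 8 weeks (14.02 to 14.42), 14.34 at 16 weeks (14.12 to 14.43), 14.33 at 32 weeks (14.26 to 14.41) and 14.31 at 48 weeks (14.21 to 14.51). The ranges overlap at every age, and 48 against 8 weeks gave 0.13 with an adjusted p of 0.471. Rpl29 gave -0.15 (adjusted p 0.604) at 48 and -0.19 (adjusted p 0.379) at 32 weeks, against 8 weeks. Rplp0 had the smallest p in 48 against 32 weeks, with 0.32 and an adjusted p of 0.872.

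The muscle paralog Rpl3l had a median log2 level of 13.92 at 8 weeks (13.77 to 14.17), 14.02 at 16 weeks (13.56 to 14.10), 13.84 at 32 weeks (13.69 to 13.99) and 13.91 at 48 weeks (13.69 to 14.03) in normoxic hearts. Its levels at the 4 ages overlapped. Within groups the 51 genes varied little between hearts. The median of their within-group SDs was 0.11 in I/R and 0.15 in normoxic hearts, against 0.26 and 0.21 over all genes. No value for equally bright genes is given here. Neither the low spread nor the small fold changes with age can therefore be called particular to ribosomal protein genes.

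**Figure D4:**
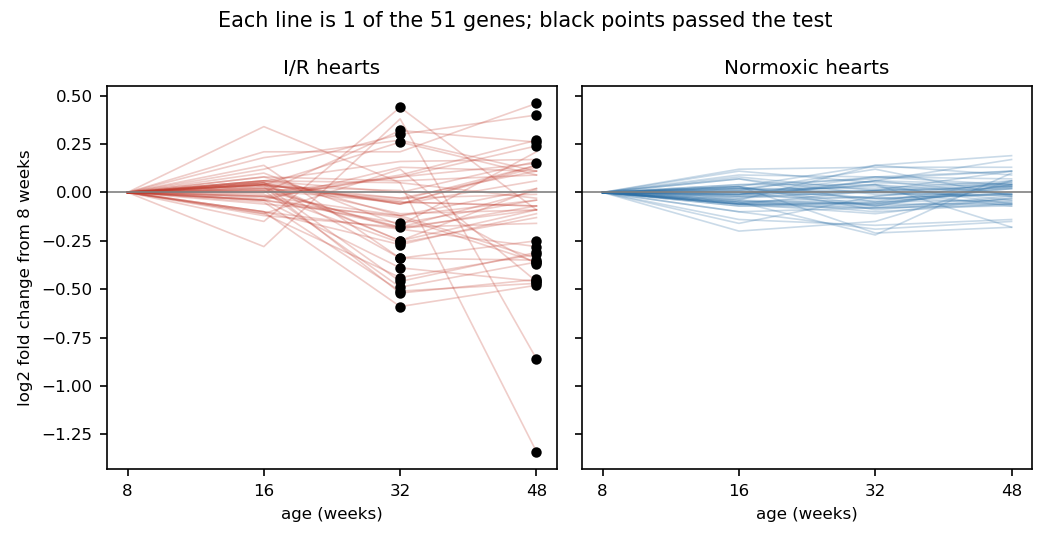
Log2 fold change from 8 weeks at 16, 32 and 48 weeks of age for the 51 genes (1 line each) in I/R hearts (left) and normoxic hearts (right); black points passed the test. In normoxic hearts none passed and the lines stay between -0.22 and 0.19, whereas in I/R hearts 19 passed at 32 weeks and 21 at 48 weeks.

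In I/R hearts the ages differed more. No ribosomal protein gene passed in 16 against 8 weeks, where 1.73% of all genes did (limma, 0 of 51 also at an unadjusted p under 0.05). In 32 against 8 weeks 19 passed (37.3%), 4 higher and 15 lower at 32 weeks, against 39.8% of all genes, of which 17.6 percentage points were higher and 22.2 lower. In 48 against 8 weeks 21 passed (41.2%), 6 higher and 15 lower at 48 weeks, against 39.3% of all genes, of which 18.6 percentage points were higher and 20.7 lower. The F test over the 4 ages was passed by 27 genes (52.9%), against 52.7% of all genes. The total shares are again near those of the background. By direction, in both comparisons a smaller share of the 51 genes than of all genes was higher, and a larger share lower. That tilt was not tested, and both comparisons use the same 8-week hearts. The 15 lower at 48 weeks include Rpl22l1, Rpl36al and Rpl4, detected in 1, 0 and 1 hearts at 48 weeks and in 6, 4 and 6 at 8 weeks. These genes entered the set wholly or mainly through I/R hearts. Their calls therefore weigh little in the count at 48 weeks, in its tilt and in the F test, which they also passed.

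Rpl13, a large-subunit protein gene, shows the pattern. In I/R hearts its median log2 level was 13.94 at 8 weeks (13.75 to 14.07), 13.95 at 16 weeks (13.79 to 14.06), 13.43 at 32 weeks (13.36 to 13.56) and 13.59 at 48 weeks (13.47 to 13.67). The 32- and 48-week hearts lay below all 8- and 16-week hearts. The differences from 8 weeks were -0.49 ± 0.0666 at 32 weeks (adjusted p 9.39e-08) and -0.36 ± 0.0666 at 48 weeks (adjusted p 3.23e-05).

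Rps27l in I/R hearts had a median log2 level of 12.53 at 8 weeks (12.35 to 12.68), 12.42 at 16 weeks (12.28 to 12.59), 11.94 at 32 weeks (11.85 to 12.04) and 12.02 at 48 weeks (11.89 to 12.19). It too lay below the range of both younger groups, with differences from 8 weeks of -0.59 at 32 weeks (adjusted p 2.01e-08) and -0.48 at 48 weeks (1.26e-06). Rpl39 had 13.88 at 8 weeks (13.79 to 14.00), 13.83 at 16 weeks (13.72 to 14.08), 13.50 at 32 weeks (13.43 to 13.61) and 13.44 at 48 weeks (13.31 to 13.66). Its difference from 8 weeks was -0.39 at 32 weeks and -0.46 at 48 weeks (adjusted p 2.97e-06).

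Rpl41 was lower than at 8 weeks by a log2 fold change of -0.52 at 32 weeks and -0.45 at 48 weeks (7.12e-06), and the value at 48 weeks was -0.53 with median centring. Rps29, a zinc-binding protein gene of the small subunit, gave -0.46 and -0.31, Rpl28 -0.51 and -0.47, Rpl30 -0.34 and -0.35, and Rpl8, whose product lies close to the peptidyl transferase centre, -0.44 and -0.32. All of these passed at 32 and at 48 weeks. The next Rpl28 probe was detected in 1 I/R and 5 normoxic hearts only, too few to weigh against the brightest.

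The brightest Rps9 probe ran the other way in I/R hearts. Its median log2 level was 13.03 at 8 weeks (12.96 to 13.07), 12.98 at 16 weeks (12.96 to 13.14), 13.14 at 32 weeks (12.99 to 13.19) and 13.30 at 48 weeks (13.21 to 13.43). All 48-week hearts lay above the hearts of the 3 younger groups, and the difference from 8 weeks was 0.27 ± 0.0543 (adjusted p 8.43e-05), with 0.20 and 0.21 from the second and the third Rps9 probe (adjusted p 0.0275 and 0.0168). The fourth gave -0.35 (adjusted p 0.0403), so here too no direction can be given for the gene. Rpl11 was higher by 0.24 (0.0022) and Rpl9, which lies near the stalk base, by 0.26 (0.00515). Rpl21 gave 0.40 from the brightest probe but -0.61 from the next (adjusted p 0.000323), which was detected in 8 of 24 I/R hearts, so no direction can be given for that gene. Rplp0 gave 0.46 (0.0082) and its next probe, detected in 13 I/R hearts, -0.09 (0.748).

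Genes higher at 32 than at 8 weeks in I/R hearts were Rpl9 (0.32, adjusted p 0.000622), Rpl5 (0.26, 0.00285), Rpl21 by its brightest probe (0.30) and Rpl14 (0.44, 0.0183), the last detected in 6 hearts at 32 weeks and 1 at 8 weeks. RIN fell with age among the I/R hearts, as given above. With RIN as a covariate 17 of 51 genes passed at 32 weeks and 18 at 48 weeks. The shares of all genes with RIN as a covariate are not given here. Endothelial markers also differed with age in I/R hearts, where 6 of the 7 measured passed in 48 against 8 weeks, 2 higher and 4 lower. Their summed signal lay between 4994 and 5850 at 48 weeks, against 5756 and 7840 at 8 weeks. Among fibroblast markers 2 of 6 were lower, and no macrophage marker of 4 passed (0 also at an unadjusted p under 0.05). Their part in these differences was not tested.

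Whether the I/R difference itself depended on age was tested over the 4 ages by an F test of the interaction. It was passed by 14 of the 51 genes (27.5%), against 29.2% of all genes. The 14 include Rpl22l1 and Rpl36al, which were not detected in normoxic hearts, so their calls weigh little. For Rpl13 the I/R difference was -0.04, -0.02, -0.54 and -0.42 on the log2 scale at 8, 16, 32 and 48 weeks (adjusted p of the interaction 1.27e-05). Normoxic hearts stayed between 13.68 and 14.15 at all ages, and the I/R hearts of 32 and 48 weeks lay below that range, at 13.67 at most. For Rps27l the differences were -0.27, -0.38, -0.90 and -0.71 (1.64e-05), and for Rps29 -0.11, -0.12, -0.64 and -0.54 (1.69e-05).

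The I/R difference of Rpl39 was 1.06, 0.94, 0.66 and 0.56 at the 4 ages (adjusted p 0.000365), higher in I/R hearts throughout and largest at 8 weeks. Rpl35a gave 1.25, 1.25, 1.11 and 0.78 (0.042). Rpl30, known in yeast for controlling the splicing of its own transcript, gave 0.46, 0.48, -0.01 and 0.03 (0.000234), so it passed in I/R against normoxic hearts at 8 and 16 weeks and did not pass at 32 and 48 weeks. Rpl9 gave 0.22, 0.29, 0.59 and 0.47 (0.0181), and Rps9, by its brightest probe, -0.64, -0.68, -0.52 and -0.36 (0.00403).

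Rpl8 and Rpl28 passed in opposite directions. Rpl8 was higher in I/R hearts at 8 weeks, with a median log2 level of 12.58 (12.52 to 12.68) in I/R hearts and 12.31 (12.19 to 12.57) in normoxic hearts, and lower at 32 weeks, with 12.14 (12.04 to 12.30) in I/R hearts and 12.36 (12.26 to 12.50) in normoxic hearts. The ranges overlapped at the edges, and the 2 differences were 0.23 (adjusted p 0.00496) and -0.22 (adjusted p 0.00638). Rpl28 gave 0.22 at 8 weeks (adjusted p 0.0486) and -0.27 at 32 weeks (0.0114). The interaction had an adjusted p of 0.00116 for Rpl8 and 0.00505 for Rpl28.

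**Figure D5:**
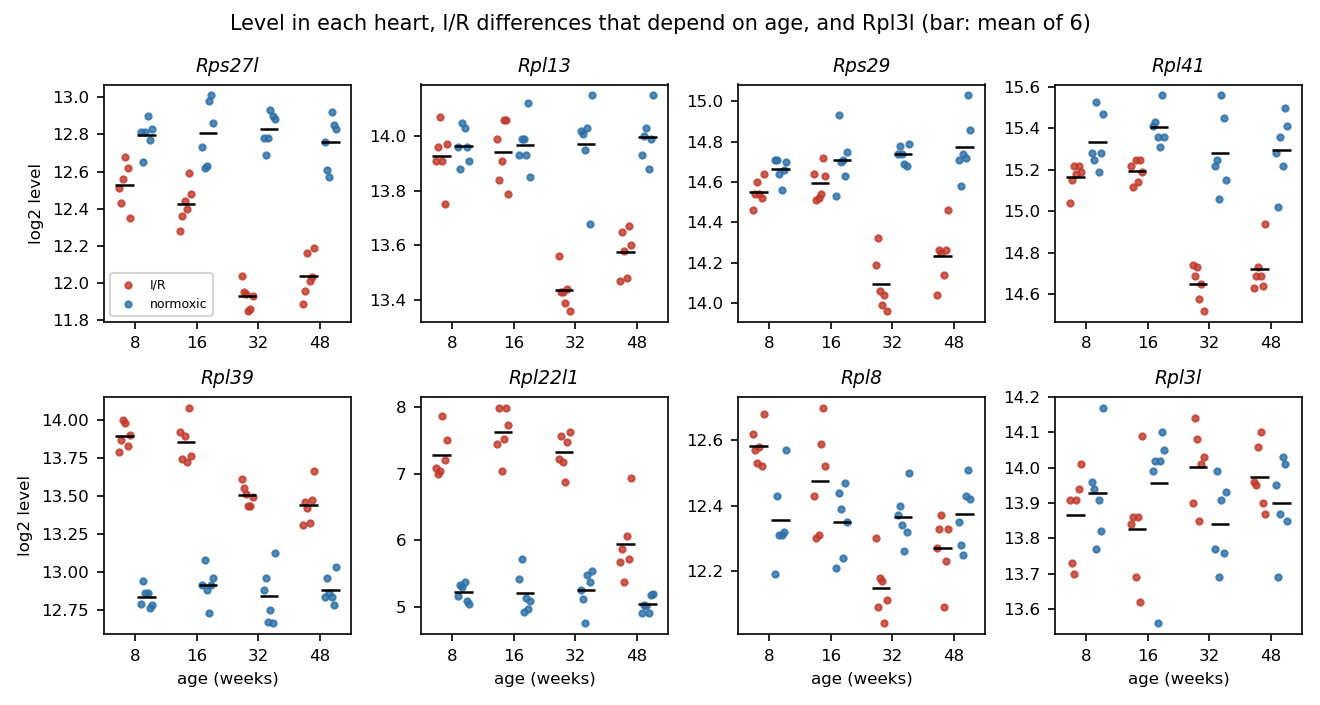
Log2 level in each heart (points, I/R left of normoxic at each age in weeks, bar at the mean of 6) for 7 genes past the F test of the interaction, and for Rpl3l. Rpl22l1 was not detected in normoxic hearts. Rps27l, Rpl13, Rps29 and Rpl41 drop at 32 and 48 weeks in I/R hearts, while the normoxic hearts overlap at all ages. Rpl22l1 drops at 48 weeks, where 1 I/R heart had it detected. Averaged over ages, the I/R difference of Rpl41 is -0.40 here and 0.05 with median centring, and that of Rpl8 is 0.01 and -0.05.

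Rpl22l1 had a median log2 level in I/R hearts of 7.14 at 8 weeks (6.99 to 7.87), 7.63 at 16 weeks (7.04 to 7.99), 7.35 at 32 weeks (6.88 to 7.63) and 5.81 at 48 weeks (5.38 to 6.93). The 48-week hearts were lower than all others except for a single heart at 6.93, with the probe detected in 6, 6, 6 and 1 hearts at the 4 ages. Against the normoxic hearts, none of which had it detected, it was at least 2.99-, 3.75- and 3.13-fold higher at 8, 16 and 32 weeks. At 48 weeks the computed value was 1.19-fold, which is no firm bound with 1 I/R heart detected. Its interaction F test (adjusted p 4.89e-05) weighs little, since the normoxic side was not detected. In I/R hearts it was lower at 48 than at 8 weeks (-1.34 ± 0.18, adjusted p 9.15e-08 by limma). That call weighs little as well, since the gene entered the set mainly through the younger I/R hearts. Rpl36al was detected in 4, 2, 5 and 0 I/R hearts at the 4 ages and in 0 normoxic hearts. Its interaction F test (adjusted p 0.000867) weighs little too.

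Other genes of the translation machinery were counted from written lists, to be read against the 78.9% of all genes past the test (34.6% higher, 44.4% lower). Among 69 mitochondrial ribosomal protein genes 56 passed for the mean I/R difference, 25 higher and 31 lower, with Mrpl13 at 3.10 and Mrpl9 at -1.33 on the log2 scale. Of 34 initiation factor genes 29 passed, 13 higher and 16 lower, among them Eif3k (2.31) and Eif3e (2.04), subunit genes of an initiation complex that binds the small subunit, and Pabpc1 (2.38), which encodes the poly(A)-binding protein. Of 20 regulators of mTORC1 and TOP translation 19 passed, 10 higher and 9 lower, with the inhibitor Tsc1 at 1.36, the lysosomal anchor Lamtor2 at 1.24 and the kinase Mtor at -0.92. Of 64 ribosome assembly genes 52 passed, 22 higher and 30 lower, with Nop14 at 2.17 and Tcof1 at 1.90. Of 10 genes of RNA polymerase I 8 passed, 5 higher and 3 lower, with the initiation factor Rrn3 at 1.49. Elongation factors had 7 of 8 past the test, 3 higher and 4 lower, led by Eif5a at -1.29. Medians of these 6 lists lay between -0.06 and 0.12. Genes of ribosome rescue and termination had 10 of 12 past the test, 3 higher and 7 lower, with a median of -0.39 and Ltn1, a ligase that marks stalled chains, at -0.80. Each list, like the ribosomal protein genes, held changes both ways. The values of single genes in these lists are those of their brightest probes, and no second probe is given here.

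In normoxic hearts of 48 against 8 weeks these lists gave 0 called genes by limma, except for 1 of 34 initiation factors, which was lower. At an unadjusted p under 0.05 there were 7 mitochondrial ribosomal protein genes, 7 initiation factors, 6 assembly genes, 3 mTORC1 and TOP regulators, 3 polymerase I genes, 2 rescue genes and 0 elongation factors, against 1009 of the 9811 genes (10.3%). For the genes mutated in Diamond-Blackfan anaemia in humans, 11 of 20 were measured. Genes of that disease, such as Rpl35a, were already counted above among the ribosomal protein genes, so this list is not separate from them. For the mean I/R difference 10 passed, 7 higher and 3 lower (78.9% of all genes passed). In 48 against 8 normoxic weeks 0 passed (0 also unadjusted), where 1.64% of all genes passed. Fau, which encodes a ribosomal protein fused to a ubiquitin-like domain and falls outside the symbol rule, gave -0.02 in I/R against normoxic hearts (adjusted p 0.685).

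Across the 45 genes detected on every array, the deviations of single hearts from their group means tended to go together. Over 990 gene pairs the median Pearson correlation of these deviations was 0.30 in I/R and 0.19 in normoxic hearts (24 hearts each), a description in which all genes share the same arrays. No value for pairs of other genes is given here, so the correlation cannot be called particular to ribosomal protein genes. The median deviation of the 51 genes from their overall means was 0.10, 0.11, -0.01 and 0.07 in I/R hearts of 8, 16, 32 and 48 weeks, against -0.06, -0.07, -0.08 and -0.05 in normoxic hearts.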

How the data were processed

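RNA of 48 left ventricles was labelled with biotin (TotalPrep kit) and measured on Illumina bead arrays, per the labels' protocols. The deposited signal is a linear intensity without normalization, per the file headers. The deposited detection score is a fraction that rises with signal (lowest rank correlation 0.995) and was read as 1 minus the detection p-value. The deposited processed values are close to log2 (column medians 7.81 to 7.83, slope 0.955 to 1.04 on log2 signal, not centred by gene); the submitters' processing notes name lumi, and their exact transform and scaling across arrays are unknown. These values were used as an alternative.

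Signals were corrected with limma 3.58.1 in R 4.3.3 (normexp from detection p, offset 16), quantile normalized and put on log2. Reading used data.table (version 1.17.8) and statmod 1.5.0 served limma. Probes with a detection p under 0.05 on at least 6 of 48 arrays were kept (17624 of 46624), and the brightest probe stood for each gene. Of all probes 29971 had 1 symbol, 10 several and 16643 none; 29916 symbols were updated by Entrez number. limma (lmFit, eBayes) fitted 8 group means to 48 arrays, and p-values were two-sided and adjusted over 9811 genes. The fit was tested on simulated data. No residual pairing of equal replicate numbers was found (mean correlation 0.01 between ages). The labels do not say that replicates were separate litters or days. The p-values therefore set each difference against the spread between these hearts within groups only. The number of arrays limits the precision.

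A probe undetected on a whole side has only a bound, the mean of the bright side over the dim side with each dim array raised to its lowest detected signal. Members and lists were chosen with earlier results of these data known. Named genes follow a rule. The mean I/R comparison names the 10 largest changes per direction among genes past the threshold and detected on all arrays of a treatment. For each age comparison they are the 5 smallest p per direction, for F tests the 10 smallest, and where none passed the 2 smallest. Stalk, 5S and paralog genes, genes with opposite probes and up to 3 genes per other list were added. Other genes named (Rps15a, Rpl4, Rps13, Rpl10a, Rps20, Rpl36a, Rps3) were chosen after their values were seen. Alternatives are given in the closing section.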

Additional observations from a re-analysis of the deposited data

Results flagged for a closer look

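An I/R difference that varied with age passed the F test of the interaction in 14 ribosomal protein genes, and the adjusted p-values were 1.27e-05 for Rpl13, 1.64e-05 for Rps27l, 1.69e-05 for Rps29, 4.89e-05 for Rpl22l1, 0.000234 for Rpl30, 0.000365 for Rpl39, 0.000458 for Rpl41, 0.000867 for Rpl36al, 0.00116 for Rpl8, 0.00403 for Rps9, 0.00505 for Rpl28, 0.0163 for Rpl13a, 0.0181 for Rpl9 and 0.042 for Rpl35a. The Rps9 value is that of its brightest probe. Rpl22l1 and Rpl36al were detected in I/R hearts only, so the interaction p-values of these 2 genes weigh little. For Rpl13a the I/R difference was -0.27, -0.12, -0.66 and -0.46 on the log2 scale at 8, 16, 32 and 48 weeks.

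Single hearts stood apart from the other 5 of their group in 11 of the 280 groups of 6 values examined (35 named genes in 8 groups), by the gap to the nearest heart over the whole range. Chance gives about 1 in 20 groups, or 14 here. Among I/R hearts these were Rpl13a in 16-week replicate 5 (10.08), Rpl7l1 in 16-week replicate 1 (7.76), Rps9 in 16-week replicate 4 (13.14) and 32-week replicate 6 (12.99), and Rpl41 in 48-week replicate 6 (14.94). Among normoxic hearts they were Rpl29 in 8-week replicate 6 (9.21), Rpl9 in 8-week replicate 1 (13.80), Rpl13a in 16-week replicate 5 (10.05), Rpl22 in 16-week replicate 6 (11.03), Rpl3l in 16-week replicate 3 (13.56) and Rpl32 in 48-week replicate 4 (11.85). All values are log2 levels, and no cause was tested.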

How the results depend on the processing

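Every count of ribosomal protein genes past the threshold stayed within 1.5 times the reported one. For the mean I/R difference the count was 36 with a strict filter on dim probes (of 45 genes), 38 with RIN as a covariate and 46 with the authors' deposited values. Shares of all genes under the alternatives of this section are not given, so these counts cannot be set against them. Leaving out a heart gave 39 to 42 for the mean I/R difference, 34 to 37, 32 to 35, 37 to 39 and 32 to 34 at the 4 ages, 15 to 19 for 32 and 19 to 21 for 48 against 8 weeks in I/R hearts, 25 to 28 for any age in I/R hearts, 13 to 17 for the interaction and 0 throughout for age in normoxic hearts. Equal replicate numbers did not pair the hearts, and with the replicate block the counts were 40, 19 for 32 weeks, 19 for 48 weeks and 15 for the interaction. Fitting only the arrays compared gave 18 and 20 in I/R hearts at 32 and 48 weeks, and is the reported fit for the mean I/R difference and the interaction.

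Among the genes named by the rule, signs turned in these cases, and the cause was not tested. The third and the fourth brightest probe were added after seeing the data. In the mean I/R difference, RIN as a covariate gave 0.00 for Rpl8 and -0.06 for Rpl3l, the authors' values 0.00 for Rpl28 and -0.02 for Rpl3l, median centring 0.05 for Rpl41 and -0.05 for Rpl8, the next brightest probe 0.02 for Rpl7l1 and -0.45 for Rpl23, and the fourth probe 1.97 for Rps9. In 48 against 8 weeks in I/R hearts, median centring gave -0.03 for Rps24 and 0.12 for Rpl14, the authors' values -0.03 for Rps24, and the next probe -0.02 for Rpl5, -0.18 for Rps24, -0.23 for Rpl38, -0.09 for Rplp0 and -0.61 for Rpl21, the third -0.52 for Rpl7l1 and the fourth -0.35 for Rps9. Rps20, named outside the rule, gave -0.07 and 0.07 from its probes there, and neither passed. The small calls of Rpl13a (-0.25, adjusted p 0.0492) and Rps14 (0.15, adjusted p 0.0449) at 48 weeks were lost under most alternatives. Among settings tried for the named genes, 270 kept their side and direction, 9 turned, 9 gained and 4 lost the call for the mean I/R difference, and 295, 10, 5 and 17 did so for 48 against 8 weeks. Median centring moved the median of all genes in the I/R comparison to 0.00 from -0.07.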
